A study of Homo sapiens with 6 samples.

Results

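Adrenomedullin is a secreted peptide that dilates vessels and promotes the growth of blood and lymphatic vessels. It acts through CALCRL, a G protein-coupled receptor that reaches the cell surface together with a receptor activity-modifying protein (RAMP). RAMP1 gives CALCRL a preference for calcitonin gene-related peptide, whereas RAMP2 and RAMP3 form adrenomedullin receptors. The receptor raises cyclic AMP, the ligand gene ADM is a known target of the hypoxia-inducible factors, and CALCRL with RAMP2 is best known from endothelial cells. The 6 genes examined here were the ligands ADM and ADM2 (also called intermedin), the receptor CALCRL, and RAMP1, RAMP2 and RAMP3, chosen by name from 20176 protein-coding genes.

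Their chromatin accessibility was compared by ATAC-seq, in which a transposase cuts open DNA, between parental MDA-MB-231 cells and SAP30-KO1 MDA-MB-231 cells. MDA-MB-231 is a human cell line from a triple-negative breast cancer, and both groups were grown in DMEM with fetal bovine serum and no treatment named in the labels. SAP30-KO1 cells are labelled as knockouts of SAP30, which belongs to the SIN3 chromatin complex, made by CRISPR/Cas9 with 1 of the guides of the study, and the line is a mixture of several selected knockout cells. There were 3 libraries per group, and no label says whether they came from separate cultures, so tests measure the spread between these libraries only. ADM2 is among the genes that the study followed. The study reported lower ADM2 mRNA in SAP30 knockout cells and found SAP30 bound at the gene in parental cells. The question for the 6 genes was whether open sites at or near them differed without SAP30.

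The libraries held 29762 to 40650 peak summits, each scored by the q value of its peak on the −log10 scale. Depth is unknown from these lists, so a summit that was not called is no proof of closed chromatin. Scores were therefore turned into percentile ranks within each library, from 0 for no summit to 100 for the strongest. The promoter of SAP30 itself had a summit in every library (ranks 64.8 to 84.7 in parental and 49.5 to 89.5 in SAP30-KO1 cells), which does not check the knockout, since peak lists do not show the edit. Among the markers, VIM and CD44, mesenchymal genes of this line, had a promoter summit in all 6 libraries, while AXL and ZEB1 had one in 3 each. The endothelial genes CDH5, TEK and VWF and the blood cell gene PTPRC had none. The luminal genes ESR1 and PGR had one in 1 library each, FOXA1 in 2 and GATA3 in 5.

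The sequences that carry the results are shown here in GRCh37, 5′ to 3′ on the strand of the gene. Capitals mark matches on either strand to the hypoxia response core (ACGTG or GCGTG) and the GC box (GGGCGG), which do not overlap each other in them. The other motifs searched, AP-1 (TGACTCA) and the cyclic AMP response element (TGACGTCA), occur in 3.06% and 2.40% of promoters. Of 56418 open sites of the series, 26.6% and 0.794% hold them. The sequences shown hold neither, but some open sites near ADM2, RAMP1 and RAMP3 that are not shown hold an AP-1 match. A sequence without capitals has no match. The first pair are the 250 bases before the start of ADM (chr11:10326370-10326619, plus strand), in which all called summits of the ADM promoter lie, and before that of ADM2 (chr22:50919722-50919971, plus strand), where no summit was called.
ADM: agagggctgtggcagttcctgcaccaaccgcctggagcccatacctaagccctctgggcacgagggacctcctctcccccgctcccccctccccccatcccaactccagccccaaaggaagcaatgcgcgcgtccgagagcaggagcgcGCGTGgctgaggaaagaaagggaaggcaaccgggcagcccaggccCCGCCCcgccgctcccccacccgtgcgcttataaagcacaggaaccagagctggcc
ADM2: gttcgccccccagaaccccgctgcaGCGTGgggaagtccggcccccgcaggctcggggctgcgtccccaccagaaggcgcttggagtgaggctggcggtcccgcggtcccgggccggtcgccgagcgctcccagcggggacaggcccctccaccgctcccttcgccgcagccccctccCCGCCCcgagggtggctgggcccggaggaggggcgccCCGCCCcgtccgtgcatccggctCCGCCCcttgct
The next pair are the 250 bases before the first annotated start of CALCRL (chr2:188313188-188313437, minus strand) and of RAMP1 (chr2:238767286-238767535, plus strand), of which the first holds the summits of SAP30-KO1 replicates 2 and 3 and the second that of SAP30-KO1 replicate 2.
CALCRL: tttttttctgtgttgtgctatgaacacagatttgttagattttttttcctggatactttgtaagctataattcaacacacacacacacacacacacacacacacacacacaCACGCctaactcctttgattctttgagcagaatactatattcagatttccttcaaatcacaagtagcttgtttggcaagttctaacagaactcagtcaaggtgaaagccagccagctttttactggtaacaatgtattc
RAMP1: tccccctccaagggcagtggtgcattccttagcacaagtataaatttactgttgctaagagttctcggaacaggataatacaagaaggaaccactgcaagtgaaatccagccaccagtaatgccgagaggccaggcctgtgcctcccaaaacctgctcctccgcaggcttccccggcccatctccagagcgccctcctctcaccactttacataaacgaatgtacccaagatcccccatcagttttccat
The last is the strongest site of all 6 genes, 300 bases of the first intron of CALCRL around the median summit (chr2:188255708-188256007, read on the minus strand).
CALCRL intron: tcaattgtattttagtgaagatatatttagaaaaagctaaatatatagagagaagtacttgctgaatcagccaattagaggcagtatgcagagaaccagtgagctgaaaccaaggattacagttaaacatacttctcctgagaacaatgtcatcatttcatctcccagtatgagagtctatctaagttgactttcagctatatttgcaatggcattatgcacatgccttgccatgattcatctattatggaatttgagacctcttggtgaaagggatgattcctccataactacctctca

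The promoter sequences differ in composition. Before the canonical start, G and C made up 78.8% of the 250 bases of ADM2, 77.2% of RAMP1, 78.4% of RAMP2, 75.6% of RAMP3 and 68.0% of ADM, all above the median of 63.2% over 20152 promoters. CALCRL stood apart with 44%, above only 10.5% of promoters, and its ratio of observed to expected CG dinucleotides was 0.08 against a median of 0.75. Of these 250 bases of CALCRL, 208 are annotated as untranslated region of CALCRL itself, and 99 of those of RAMP2 as that of RAMP2. The 250 bases before the first start of CALCRL had 37.2% G and C. The GC-rich promoters of ADM2, RAMP2 and RAMP3 had no called summit, and that of RAMP1 had none within its 250 bases either. Before the canonical start, 5 of the 6 genes held both a hypoxia response core and a GC box, and CALCRL held neither. Of all promoters of this length, 51.2% hold a hypoxia response core and 58.6% a GC box. The share that holds both was not computed. The printed stretches before the first starts of CALCRL and RAMP1 are not the canonical ones, and of them that of CALCRL holds a hypoxia response core. The CALCRL intron sequence contains no CG dinucleotide at all, as do 6.4% of the 56418 open sites measured in the same way, and none of the 4 motifs.

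First, the promoters were compared, taken as 1 kb on either side of any annotated start of the gene. Of the 6 genes, 3 had a promoter summit in at least 1 library and 3 (ADM2, RAMP2 and RAMP3) had none in any library. For comparison, 12572 of the 20176 protein-coding genes had one in at least 1 library and 37.7% had none. No member had a promoter summit in all 6 libraries, which 34.5% of protein-coding genes had.

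**Figure D1:**
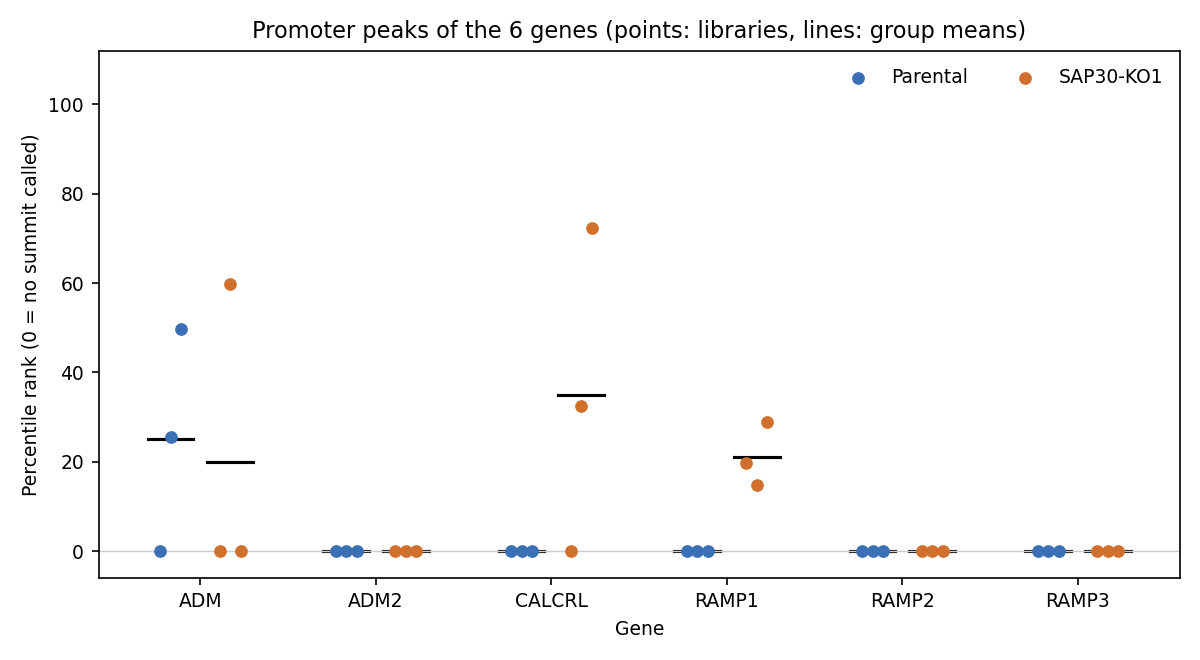
Percentile rank of the strongest promoter summit (vertical axis, 0 where none was called) for each of the 6 genes (horizontal axis) in 3 Parental and 3 SAP30-KO1 libraries; points are libraries and lines are group means. RAMP1 has ranks from 14.7 to 28.8 in SAP30-KO1 and 0 in Parental libraries, and ADM2, RAMP2 and RAMP3 are at 0 throughout.

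ADM (ENSG00000148926, chromosome 11, 10326620 to 10328944, plus strand) had promoter summits 111 to 249 bp before its start. The ranks were 0, 25.5 and 49.7 in parental replicates 1, 2 and 3, and 0, 59.7 and 0 in SAP30-KO1 replicates 1, 2 and 3. A library with no summit was present in both groups, the highest rank was in a SAP30-KO1 library, and the groups overlapped. The mean was 25.1 ± 24.9 in the parental and 19.9 ± 34.5 in the SAP30-KO1 libraries (SD, n = 3), a difference of -5.16 (p = 1 in a two-sided exact permutation test). It turned to 3.68 when summits with a q value above 0.0001 were dropped, was -25.1 without SAP30-KO1 replicate 2, 4.79 without either of the other SAP30-KO1 replicates and 7.17 without parental replicate 3. A transcript of SBF2, a gene of the myotubularin-related family on the opposite strand, starts 196 bp before ADM, so a summit there cannot be assigned to ADM alone.

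ADM2 (ENSG00000128165, chromosome 22, 50919972 to 50924869, plus strand), the second ligand, had no promoter summit in any of the 6 libraries. RAMP2 (ENSG00000131477, chromosome 17, 40910465 to 40915059, plus strand) and RAMP3 (ENSG00000122679, chromosome 7, 45197390 to 45225901, plus strand) had none either. No difference between the groups could be measured at these 3 promoters. GNAS, which nearly all cells express, had no called promoter summit in any library either, so a missing summit does not show that a promoter was closed.

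CALCRL (ENSG00000064989, chromosome 2, 188206691 to 188313187, minus strand) had a promoter summit in SAP30-KO1 replicates 2 and 3, at ranks of 32.4 and 72.4. SAP30-KO1 replicate 1 and the 3 parental libraries had none. These summits lay 48 and 22 bp before the first annotated start, in the AT-rich sequence printed with the other promoters, where the antisense gene CALCRL-AS1 also runs. The difference of 34.9 rank points was not separable from the spread of the SAP30-KO1 libraries (SD 36.3, n = 3; p = 0.4 in a two-sided exact permutation test). A summit in 2 SAP30-KO1 and no parental library was found for 1.83% of the 12572 genes tested. The difference was 52.4 without SAP30-KO1 replicate 1, the library that had no summit, and then the ranges were apart. It was 16.2 without SAP30-KO1 replicate 3.

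RAMP1 (ENSG00000132329, chromosome 2, 238767536 to 238820748, plus strand) was the only 1 of the 6 whose ranks did not overlap between the groups. Its promoter ranks were 19.8, 14.7 and 28.8 in SAP30-KO1 replicates 1, 2 and 3, and no parental library had a summit. The mean in SAP30-KO1 cells was 21.1 ± 7.17 (SD, n = 3), with a difference of 21.1 (p = 0.1, the lowest that 3 against 3 libraries allow, in a two-sided exact permutation test; adjusted p = 0.945 over all 12572 genes, where no gene had a lower one). Over all genes, 6.01% had ranges apart with higher ranks in SAP30-KO1 cells, 4.57% had ranges apart with lower ranks, and 0.652% had a promoter summit in 3 SAP30-KO1 libraries and no parental library. The balance of the first pair turned with lists of the same length, which gave 692 genes lower and 667 higher in place of 575 and 755. The 3 summits were weak, with scores of 4.04, 3.85 and 4.67, against library medians of 5.93 to 6.56. They also did not share a position. In replicates 1 and 2 they lay 549 and 215 bp before the first annotated start, and in replicate 3 the summit lay 1011 bp after it, 72 bp before another annotated start. The ranges of RAMP1 were no longer apart under 3 other settings, each with p = 0.4 in the exact permutation test. The difference was 14.5 with a promoter of 500 bp in place of 1 kb, 12.6 with lists cut to the same number of top summits in each library, and 4.19 with summits of a q value above 0.0001 dropped.

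Next, all summits from 50 kb upstream of each gene to its end were examined. The 6 neighbourhoods held 42 summits over the 6 libraries, 8 of them in the gene's own promoter. Another 21 lay at promoters of other genes (SBF2, SBF1, EZH1 and TBRG4) and 13 in introns or between genes. Parental libraries had 8 summits each. The SAP30-KO1 libraries had 4, 8 and 6 in replicates 1, 2 and 3, whose whole lists held 29762, 40650 and 34262 summits. The lists of the parental libraries held 36694, 30477 and 33552. The mean was 8 ± 0 in the parental and 6 ± 2 in the SAP30-KO1 libraries (SD, n = 3), a difference of -2, and the groups overlapped. With counts scaled to the mean list length they were 7.46, 8.99 and 8.16 in parental and 4.60, 6.74 and 5.99 in SAP30-KO1 replicates 1, 2 and 3. The scaled groups did not overlap and differed by -2.43. How often other sets of 6 genes would do so was not computed. Each summit was counted, so the TBRG4 site in parental replicate 1 and the EZH1 site in parental replicate 2 counted double. The gap between the scaled groups depends on this. With each site counted once, scaled parental replicate 1 falls below SAP30-KO1 replicate 2, and the groups overlap. Both sums are given without a test because the genes were chosen with earlier results known. Neither sum separates the genes' own sites from promoters of other genes, so neither shows a loss at the 6 genes themselves. For single genes the lowest p was that of ADM, with means of 2.33 and 1.33 and an SD of 0.577 in each group (n = 3; p = 0.3 in a two-sided exact permutation test). None of the 6 genes had ranges apart, against 1.55% of 17677 genes lower and 2.23% higher in SAP30-KO1 cells.

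**Figure D2:**
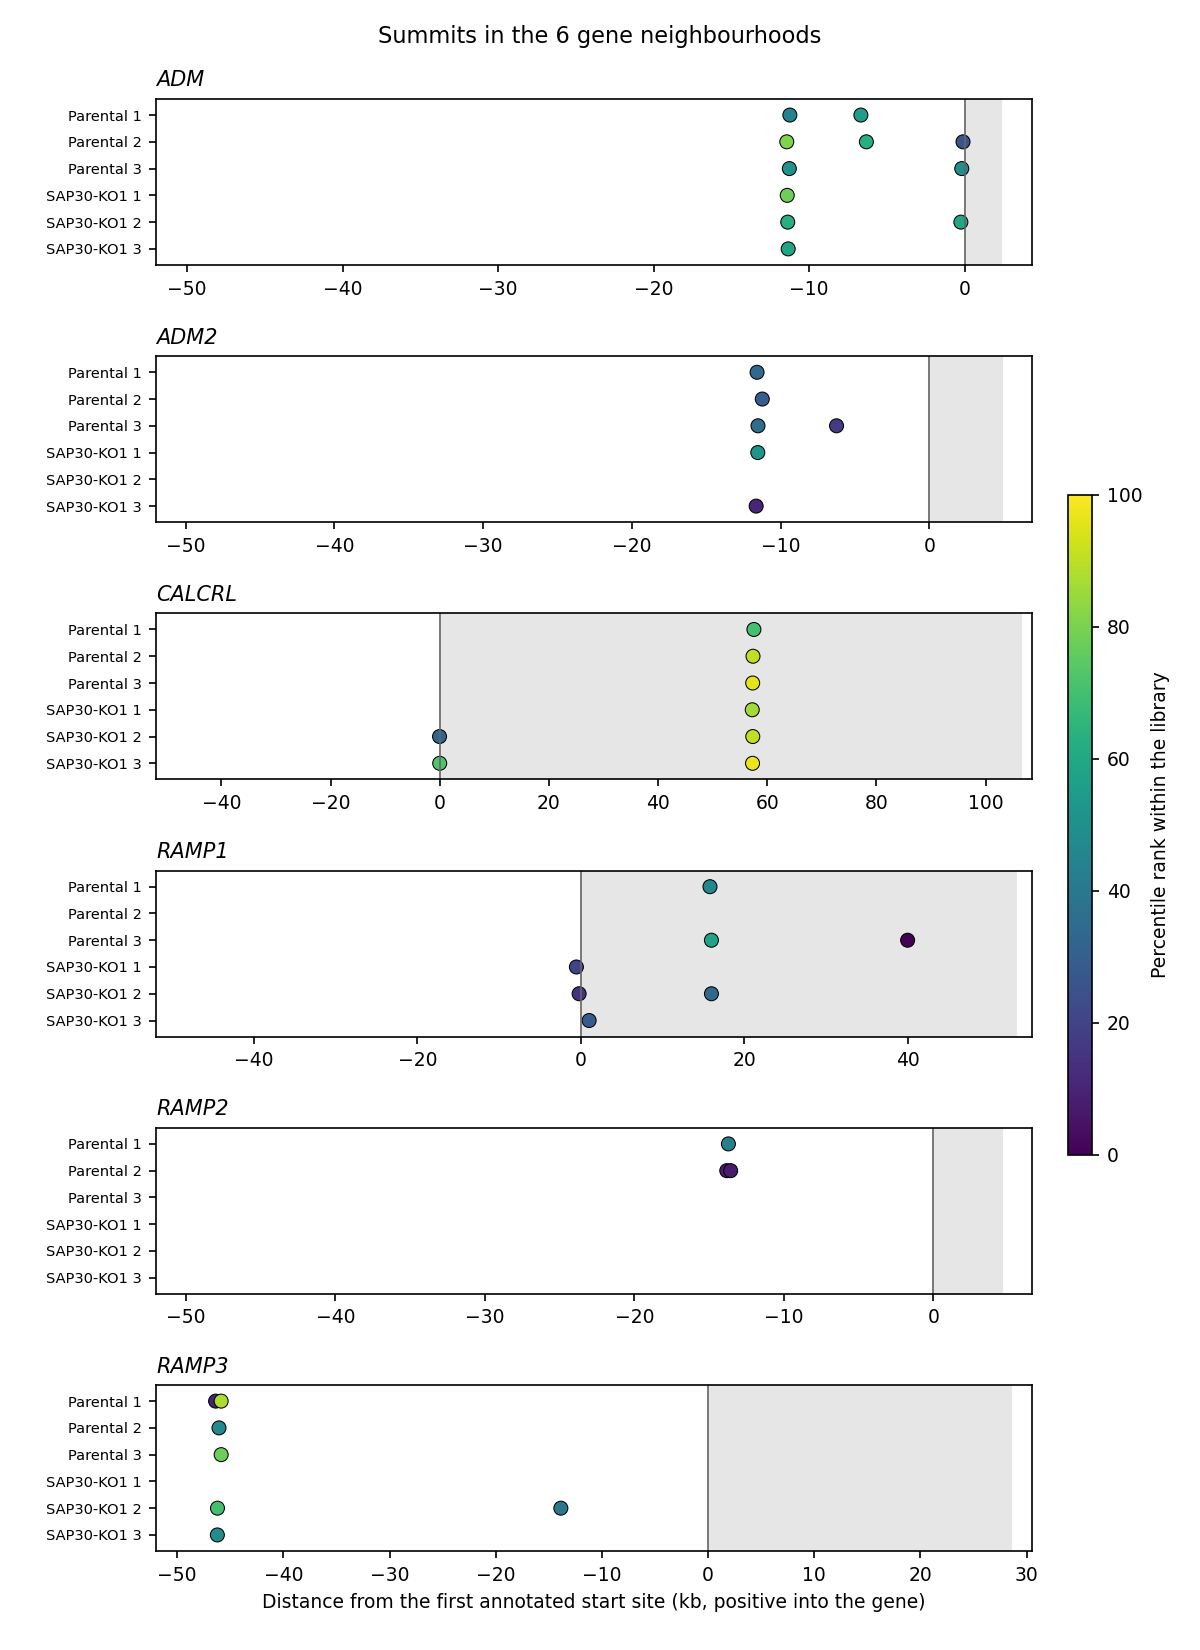
Position of each summit relative to the first annotated start of each gene (horizontal axis, kb, positive into the gene; grey is the gene body) in each of the 6 libraries (vertical axis), coloured by percentile rank within the library. Sites 11.4 kb before ADM and 57.3 kb into CALCRL are present in all 6 libraries, and those of RAMP2 in 2 Parental libraries only.

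The density of summits varied among the genes. ADM had 3.50 summits per 100 kb on average over the libraries, more than 84.0% of protein-coding genes, whose median was 1.65. ADM2 had 1.82, RAMP3 1.49, RAMP1 1.13, RAMP2 0.916 and CALCRL, the longest of the 6 genes, 0.852, which was more than 28.0% of genes. Thus the ligands were above the median and the receptor and its 3 partners below it. ADM2, above 54.3% of genes, and RAMP3, above 45.4%, were both near it. These densities include summits at promoters of other genes. Of the 11 ADM summits, 3 lay in its own promoter, and all those of ADM2 lay at promoters of SBF1. No difference between these densities was tested.

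The summits merged into 14 sites when each was widened by 250 bp on both sides. Of these, 2 were found in every library and 4 in 1 library, while 28.9% and 28.5% of the 56419 sites of the whole series were. None was present in all libraries of one group and absent from the other, against 0.876% of all sites for parental only and 1.43% for SAP30-KO1 only. None had ranges apart, compared with 4.26% of all sites lower and 5.86% higher in SAP30-KO1 cells. All 14 had an adjusted p of 1 over the 56419 sites (exact permutation test, two-sided, Benjamini-Hochberg).

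**Figure D3:**
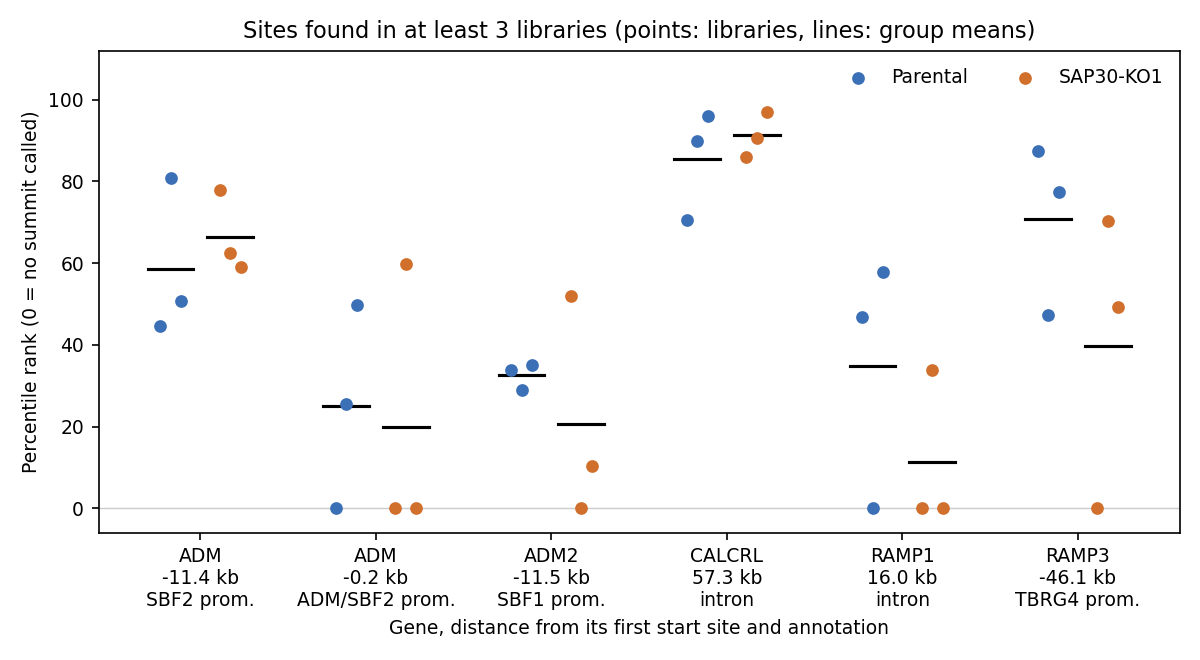
Percentile rank (vertical axis, 0 where no summit was called) of the 6 sites found in at least 3 libraries, named by gene, distance from its first start and annotation (horizontal axis); points are libraries and lines are group means. The CALCRL intron site ranks between 70.6 and 97.1 in all libraries.

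For the ligands, the strongest site near ADM lay 11.4 kb before the gene, at a start of SBF2 (chromosome 11, 10314927 to 10315626). Its ranks were 44.6, 80.8 and 50.7 in parental and 78.0, 62.5 and 59.0 in SAP30-KO1 replicates 1, 2 and 3. Each library had it, and the groups overlapped, with means of 58.7 ± 19.4 and 66.5 ± 10.1 (SD, n = 3; p = 0.6 in a two-sided exact permutation test). A site 6.50 kb before ADM in an intron of SBF2 was called in parental replicates 1 and 2 alone, at ranks of 55.2 and 63.2 (two-sided exact permutation p = 0.4).

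The strongest site near ADM2 lay at a start of SBF1, the paralog of SBF2, 11.5 kb before ADM2 (chromosome 22, 50908073 to 50908986). The distance was thus nearly that of the SBF2 site from ADM. Both ligand genes have a gene of the same family on the opposite strand. SBF2 ends short of ADM, whereas SBF1 overlaps ADM2, with an annotated start 2380 bp after that of ADM2. The start of the canonical transcript of SBF2 is 10854 bp before ADM, whereas that of SBF1 is 6508 bp before ADM2. The ranks at the SBF1 site were 33.8, 29.0 and 35.0 in parental and 51.9, 0 and 10.3 in SAP30-KO1 replicates 1, 2 and 3. The parental libraries were close together and the SAP30-KO1 libraries lay above and below them (means 32.6 ± 3.17 and 20.7 ± 27.5, SD, n = 3; p = 0.4 in a two-sided exact permutation test). A further site at an SBF1 start, 6.24 kb before ADM2, was called in parental replicate 3 only, at a rank of 17.2. Thus the open sites of the ADM2 neighbourhood were all at promoters of SBF1.

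For the receptor, the intron site of CALCRL (chromosome 2, 188255393 to 188256195) was the strongest of the 14. It lay 57.3 kb into the gene in the first intron of the canonical transcript, where the antisense gene CALCRL-AS1 also runs, and far from any start of CALCRL. Its ranks were 70.6, 90 and 96.0 in parental and 86.1, 90.7 and 97.1 in SAP30-KO1 replicates 1, 2 and 3, with scores from 8.02 to 19.7. All libraries were high and the groups overlapped, with means of 85.5 ± 13.2 and 91.3 ± 5.55 (SD, n = 3; p = 0.6 in a two-sided exact permutation test). Its mean rank over the 6 libraries, 88.4, was above that of 95.1% of all sites. It was called in every library, including the 4 without a called summit at the CALCRL promoter.

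RAMP1 also had an intron site, 16.0 kb into the gene in its first intron (chromosome 2, 238783087 to 238783766). It was called in parental replicates 1 and 3, at ranks of 46.8 and 57.9, and in SAP30-KO1 replicate 2 at 33.9. The means of 34.9 and 11.3 ran opposite to those of the RAMP1 promoter and did not differ beyond the spread (SD 30.7 and 19.6, n = 3; p = 0.4 in a two-sided exact permutation test). A weak site 40 kb into the gene was called in parental replicate 3 alone, at a rank of 0.477.

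In the neighbourhood of RAMP2, the only site lay 13.7 kb before the gene at the promoter of EZH1, a histone methyltransferase gene (chromosome 17, 40896394 to 40897152). It was called in parental replicate 1 at a rank of 42.6 and in replicate 2 with a pair of summits at 8.54 and 7.34. No SAP30-KO1 library had a summit there (p = 0.4 in a two-sided exact permutation test). Near RAMP3, a site at the promoter of TBRG4, 46.1 kb before the gene (chromosome 7, 45150755 to 45151778), ranked at 87.5, 47.2 and 77.4 in parental and 0, 70.3 and 49.2 in SAP30-KO1 replicates 1, 2 and 3. The groups overlapped, with means of 70.7 ± 21.0 and 39.8 ± 36.1 (SD, n = 3; p = 0.3 in a two-sided exact permutation test). Parental replicate 1 also had a second summit at the TBRG4 site, at a rank of 9.94. A further site 13.9 kb before RAMP3, between genes, was called in SAP30-KO1 replicate 2 alone at a rank of 39.5. RAMP3 is a gene of 7p, an arm whose 432 sites found in every library had a median difference of 3.42 rank points, higher in SAP30-KO1 cells. ADM is a gene of 11p, with a median shift of -1.73 over 301 sites, and the other members lie on arms with shifts between -0.558 and -0.0358. When promoter summits were ranked within their chromosome arm, the difference was -3.25 for ADM, 36.4 for CALCRL and 21.0 for RAMP1, and RAMP1 was still the gene with ranges apart. The sites outside the promoters were not ranked again in this way.

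Finally, 32 other genes of the pathway were examined at their promoters. Of these, 21 had a promoter summit in at least 1 library and 12 (37.5%) had one in all 6 libraries, near the 34.5% of all protein-coding genes. Among the 21 genes, 1 (4.76%) had higher ranks in SAP30-KO1 cells with ranges apart and none had lower ranks with ranges apart. These shares did not exceed the 6.01% and 4.57% of all genes given above. The median difference was 3.30 over the 21 genes and 0.673 over all 12572 genes.

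**Figure D4:**
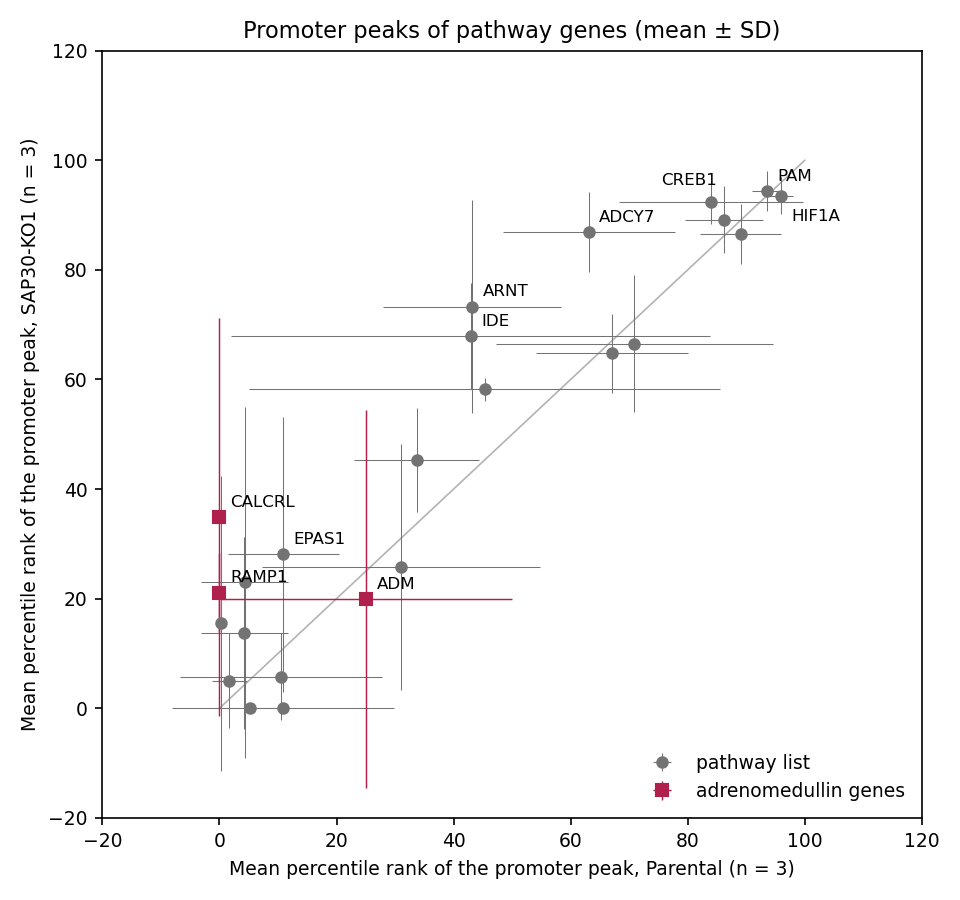
Mean percentile rank of the promoter summit in Parental (horizontal axis) and SAP30-KO1 cells (vertical axis), n = 3 each with SD, for the 21 pathway genes (circles) and 3 adrenomedullin genes (squares) with a promoter summit; the line marks equal means. PAM, HIF1A and CREB1 lie near the top of both axes, and ADCY7 is at 63.1 and 86.9.

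Among the other ligands of the calcitonin family, CALCA, IAPP and ADM5 had no promoter summit, and CALCB, which encodes a form of calcitonin gene-related peptide, had one in parental replicate 3 only, at a rank of 32.8. Of the other receptors, ACKR3, a decoy receptor that binds adrenomedullin, and GPR182 had none, and CALCR, the calcitonin receptor, had weak summits in 2 libraries of each group (means 10.5 and 5.73; two-sided exact permutation p = 0.9). By group, 1 of 4 ligand genes, 1 of 3 receptor genes, 4 of 6 genes for processing, 4 of 6 for receptor partners, 8 of 10 for cyclic AMP signalling and all 3 hypoxia regulators had a promoter summit in some library. Among genes for processing, binding and breakdown of the peptides, PAM, the enzyme that amidates adrenomedullin, ranked high in every library (90.7 to 98.4). FURIN and MME had no summit.

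Of the genes for receptor partners, the kinase gene GRK2 and NSF had no promoter summit. Of those for cyclic AMP signalling, the stimulatory G protein gene GNAS and ADCY6 had none. The kinase genes PRKACA and PRKACB and the transcription factor gene CREB1 had one in every library. ADCY7, which encodes an adenylyl cyclase that makes cyclic AMP, was the gene with ranges apart. Its ranks were 47.1, 66.1 and 76.1 in parental and 90.8, 91.4 and 78.4 in SAP30-KO1 replicates 1, 2 and 3. Each SAP30-KO1 library was above each parental library (difference 23.8, n = 3; p = 0.1, the lowest that 3 against 3 libraries allow, in a two-sided exact permutation test; adjusted p = 0.945). Without parental replicate 1, the lowest library, the difference was 15.8. Of the regulators of ADM in hypoxia, HIF1A ranked between 89.6 and 98.1 in all libraries. Its partner ARNT had means of 43.2 ± 15.2 in the parental and 73.3 ± 19.5 in the SAP30-KO1 libraries (SD, n = 3; p = 0.2 in a two-sided exact permutation test), with overlapping ranges. EPAS1 had a summit in 2 libraries of each group, with means of 10.9 and 28.1 (two-sided exact permutation p = 0.4).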

How the data were processed

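ATAC-seq was analysed in 3 parental and 3 SAP30-KO1 libraries, grouped by the sample labels. The authors trimmed single-end reads with Trim Galore 0.4.5, aligned them to hg19 with Bowtie2 2.3.3.1, removed duplicates with Picard and called peaks in each library with MACS2 2.1.0 at a q value of 0.05. Whether reads were shifted for the transposase offset is not given in the sources used here. The deposited lists give a summit per peak with the −log10 of its q value, a unit read from the lowest scores of 1.31 to 1.33, and hold no read counts. All summits lay inside the GRCh37 chromosomes, and between 0.417% and 0.598% of positions were identical in any pair of libraries, so the libraries were distinct.

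Genes and starts were those of GENCODE release 44 mapped to GRCh37. PECAM1, a listed endothelial marker, was not used here. Groups were compared by two-sided exact permutation (20 ways to split the 6 libraries, smallest p 0.1), with Benjamini-Hochberg adjustment over all genes or sites. Ranges were called apart when every library of a group lay above every library of the other. Scripts used Python 3.11.15 and were tested on simulated data. The 6 genes, lists and tests were chosen with earlier results of these data known. Named pathway genes were those with ranges apart, up to 4 in each direction, and those without a promoter summit; other named pathway genes, the motifs and the printed sequences were chosen after values were seen. A planned comparison with genes of the most similar promoter ranks was not made, because no member had a promoter summit in all 6 libraries. Alternatives changed the q value, list length, promoter width, upstream distance, site width, ranking and the libraries kept.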

Additional observations from a re-analysis of the deposited data

How the results depend on the processing

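The count of the 6 promoters with ranges apart, 1 as reported (RAMP1), was 0 with q values up to 0.0001, 0 with promoters of 500 bp and 0 with lists of the same number of top summits, and 1 to 2 when each library was left out in turn, the second being CALCRL without SAP30-KO1 replicate 1. The ADM promoter difference of -5.16 became 3.68 with q values up to 0.0001, 7.17 without parental replicate 3 and 4.79 without SAP30-KO1 replicate 1 or 3, and ran from -25.1 to 7.17 across the libraries left out. In the pathway list, 1 gene had lower ranks with promoters of 2.5 kb, and 2 genes had higher ranks with q values up to 0.0001, and 2 when ranked within the chromosome arm. Leaving out each library gave 0 to 1 lower and 1 to 3 higher genes, with 3 without parental replicate 1 or 3. Over all genes it gave 811 to 1346 lower (575 as reported, the most without parental replicate 2) and 1058 to 1792 higher (755 as reported, the most without SAP30-KO1 replicate 1). Lower genes then outnumbered higher ones without parental replicate 2 (1346 against 1081) and without SAP30-KO1 replicate 2 (1316 against 1058), as with equal lists (692 against 667), while q values up to 0.0001 gave 412 lower and 819 higher. Member sites in parental cells only were 0 to 2 (2 without parental replicate 3) and those in SAP30-KO1 cells only 0 to 1 (1 without SAP30-KO1 replicate 1 or 3). Fewer libraries make these rules easier to meet by construction, and otherwise the cause was not tested. The difference in summits over the neighbourhoods stayed negative in all 13 alternatives, at -0.333 with 100 kb upstream and from -3 to -1 across the libraries left out. These sums include summits at promoters of other genes (SBF2, SBF1, EZH1 and TBRG4). As reported, no such site was called in more SAP30-KO1 than parental libraries. Own promoter summits were called in 2 parental and 1 SAP30-KO1 libraries for ADM, 0 and 2 for CALCRL, and 0 and 3 for RAMP1. In introns or between genes, ADM and RAMP1 sites had fewer SAP30-KO1 libraries, the RAMP3 site more and the CALCRL site as many. The negative sums thus do not show a loss at the 6 genes themselves. The RAMP1 difference of 21.1 was 14.5, 12.6 and 4.19 with promoters of 500 bp, equal lists and q values up to 0.0001, and that of ADCY7 ran from 15.8 to 30.3 across the libraries left out. With parental ranks of 0, settings that only remove summits or libraries could not turn the direction of CALCRL or RAMP1. With a replicate block, pairing libraries of the same number, 1 of the 6 promoters moved the same way in all 3 pairs, as did 21.2% of the 12572 genes tested. The deviations of same-numbered libraries correlated between -0.0286 and 0.0115, so no shared deviation was seen. This does not show whether same-numbered libraries were prepared together. With 3 libraries per group and unknown depth, absent summits and small rank differences cannot be resolved.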
